A study of Mus musculus with 12 samples.

Results

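A set of 6 chemokine receptor genes of monocytes and osteoclast precursors were followed across 12 RNA-seq libraries of preosteoclasts. They are Ccr1 (ENSMUSG00000025804), Ccr2 (ENSMUSG00000049103), Ccr3 (ENSMUSG00000035448), Cx3cr1 (ENSMUSG00000052336), Cxcr4 (ENSMUSG00000045382) and Ccrl2 (ENSMUSG00000043953). They were taken from the count table by gene symbol, 6 of 57010 genes listed, and all 6 passed the filter on low counts. Marrow came from female mice with a ligature for 7 days, flushed from the mandible and from the femur, and from the femur of mice with no ligature. By the treatment label, which is the same for all 12 libraries, it was cultured for 2 days with M-CSF and RANKL, the cytokines that drive osteoclast formation. PolyA RNA was sequenced. The labels give an age of 2 months. LSD1cKO mice lack the histone demethylase LSD1 (gene Kdm1a) where LysM-Cre, which acts in myeloid cells, has recombined the floxed gene, and LSD1WT mice are the controls. The sources used here do not state whether the LSD1WT mice carry a floxed allele. Each genotype had 2 libraries in each of the 3 cultures. The labels name 9 mice, and 3 of them, LSD1WT mouse 1 and LSD1cKO mice 1 and 2, gave both a mandible and a ligated femur library.

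Chemokine receptors are G protein-coupled receptors that steer leukocytes along gradients of small secreted proteins. Ccr2 carries classical monocytes out of the marrow towards Ccl2, Ccl7 and Ccl12, and Cxcr4 holds marrow cells near stromal Cxcl12. Ccr1 and its ligands, such as Ccl9, are known from osteoclasts and their precursors, Cx3cr1 binds fractalkine and marks nonclassical monocytes and osteoclast precursors, Ccr3 binds the eotaxins and is best known from eosinophils, and Ccrl2 is an atypical receptor that binds chemerin without G protein signalling.

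Total counts ran from 21375800 to 32526800 per library, rounded to 6 digits, with a median of 26364600, and 3 counts in a library correspond to 0.0927 to 0.154 CPM (counts scaled to library size by TMM). Kdm1a was at 61.2 to 71.3 CPM in the LSD1WT libraries and at 15.6 to 24.3 CPM in the LSD1cKO libraries. In 2 libraries the preosteoclast label was not borne out by its markers. The sum of 10 osteoclast markers (Acp5, Ctsk, Mmp9, Calcr, Ocstamp, Dcstamp, Atp6v0d2, Nfatc1, Itgb3 and Oscar) was 168 CPM in replicate 2 of the ligated femur LSD1WT and 238 CPM in replicate 2 of the unligated femur LSD1WT, against 11544 to 40906 CPM in the other 10. Those 2 libraries also held 12228 and 9571 CPM of macrophage markers, against 1588 to 4475 CPM elsewhere, and 876 and 440 CPM of classical monocyte markers, against 69.5 to 232 CPM. Whether these 2 cultures received RANKL as labelled was not tested. Each comparison is therefore also given without both of them, a fit in which the single LSD1WT library left in each femur culture is assumed to vary like the other conditions. The labels of mandible LSD1WT replicate 3 conflict, mandible by title and femur by library name, and the title was followed. The 2 mandible LSD1WT libraries were close to sampling noise, with a median squared difference over genes of 1.54 times that noise against 4.90 or more in the other pairs. Their counts differed beyond it for Cx3cr1 (460 and 654 counts, exact binomial p = 8.31e-05) and for Ccrl2 (3 and 18 counts, exact binomial p = 0.00334), and they were kept as 2 samples. By their labels, the 2 libraries of a condition came from different mice. In bulk RNA, fewer cells of a type and less transcript per cell cannot be told apart.

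Per kilobase of exon (GENCODE vM21), Ccr1 was the most abundant of the receptors, with a median of 218 CPM per kb over the 12 libraries. Cxcr4 came second at 31.2 CPM per kb. Cx3cr1 at 10.2, Ccr2 at 9.14 and Ccr3 at 8.49 CPM per kb lay close together, and their ranges over the libraries overlapped widely (4.17 to 62.8, 2.82 to 36.9 and 0.816 to 18.4 CPM per kb). Ccrl2 was lowest at 0.672 CPM per kb. The order among the middle receptors differed by culture. In the mandible LSD1WT libraries Ccr3 had rank 2 at 18.1 CPM per kb and Ccr2 rank 5 at 2.90 CPM per kb, whereas in the ligated femur LSD1cKO libraries Ccr2 had rank 3 at 34.3 CPM per kb and Ccr3 rank 5 at 6.52 CPM per kb. Across libraries each gene varied by a wide factor on the CPM scale, from 6.94-fold for Cxcr4 to 68.7-fold for Ccrl2, the latter between 3 and 164 counts.

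All but Cxcr4 lie on chromosome 9 in the RefSeq annotation of GRCm38.p6, and Cxcr4 lies on chromosome 1. Along chromosome 9 the gene order runs Xcr1, Ccr1, Ccr1l1, Ccr3 and Ccr2, so that Ccr3 and Ccr2 are direct neighbours. The files were counted on GRCm39, and the coordinates given here are of GRCm38.p6 and serve the sequences only. The 250 bases upstream of the annotated start are shown for the neighbours Ccr1, Ccr3 and Ccr2, because Ccr3 and Ccr2 went opposite ways between sites, and for Cxcr4, because it went the same way as Ccr2. They are RefSeq sequences on the strand of the gene, at chr9:123968693-123968942 (minus strand), chr9:124021721-124021970 (plus), chr9:124101933-124102182 (plus) and chr1:128592300-128592549 (minus). Capitals mark matches to the 5 motifs searched on both strands.
Ccr1: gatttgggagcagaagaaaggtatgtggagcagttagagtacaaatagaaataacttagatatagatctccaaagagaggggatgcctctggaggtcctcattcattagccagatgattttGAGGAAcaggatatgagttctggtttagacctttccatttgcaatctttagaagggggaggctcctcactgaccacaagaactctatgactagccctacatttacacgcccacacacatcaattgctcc
Ccr3: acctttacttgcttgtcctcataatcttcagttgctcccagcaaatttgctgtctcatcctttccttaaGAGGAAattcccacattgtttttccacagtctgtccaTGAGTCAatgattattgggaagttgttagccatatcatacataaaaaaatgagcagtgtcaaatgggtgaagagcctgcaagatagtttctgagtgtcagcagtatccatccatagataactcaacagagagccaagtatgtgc
Ccr2: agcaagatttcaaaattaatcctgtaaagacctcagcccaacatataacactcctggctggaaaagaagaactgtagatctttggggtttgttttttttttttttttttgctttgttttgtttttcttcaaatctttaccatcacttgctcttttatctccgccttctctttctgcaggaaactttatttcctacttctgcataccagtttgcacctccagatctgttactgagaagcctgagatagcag
Cxcr4: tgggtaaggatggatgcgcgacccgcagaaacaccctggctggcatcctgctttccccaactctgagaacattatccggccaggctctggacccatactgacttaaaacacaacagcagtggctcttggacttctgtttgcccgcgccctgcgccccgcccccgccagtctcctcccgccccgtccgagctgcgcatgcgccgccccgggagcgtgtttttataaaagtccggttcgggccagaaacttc
The PU.1 core GAGGAA was found in the Ccr1 and Ccr3 windows, 129 and 181 bases before the start, and in 23.2% of the 32851 windows of that length in the table. The AP-1 motif TGANTCA was found in the Ccr3 window, 144 bases before the start, and in 6.75% of all windows. The windows of Ccr2, Cxcr4 and Cx3cr1 held none of the 5 motifs. The hypoxia response core ACGTG (16.6% of all windows) was found in each of the 3 Ccrl2 windows in the table, and neither AAATCAC (a GFI1 motif, 2.75%) nor GAAANNGAAA (an interferon-stimulated response element, 2.98%) was found in any window of the receptors. The Ccr1, Ccr3 and Ccr2 windows were 43.6%, 40.4% and 37.2% G or C and held 1, 0 and 1 CpG, and the Cxcr4 window was 61.2% G or C with 19 CpGs, beside a median of 52.4% and 6 CpGs over all windows. These matches describe letters only and were not tested for binding.

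Ccr1, a receptor for Ccl9 and Ccl5 among others, was high in every library with osteoclast markers. Mandible cultures gave 919.5 and 939.95 CPM for LSD1WT against 720.3 and 597 CPM for LSD1cKO. Ligated femur cultures gave 769 and 162 CPM for LSD1WT against 569.5 and 637 CPM for LSD1cKO, and unligated femur cultures 791 and 77.9 CPM against 476 and 425 CPM. The 162 and 77.9 CPM belong to the 2 libraries with few osteoclast markers, and with them the genotypes overlapped in both femur cultures. In all 3 cultures the other LSD1WT libraries, a single library in each femur culture, lay above both LSD1cKO libraries. In the mandible 34.8% of all genes were likewise lower in LSD1cKO without overlap. The share for the femur without those 2 libraries was not computed.

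Ccr3, the eotaxin receptor, was likewise lowest in those 2 libraries. The mandible held 57.9 and 60.2 CPM of it for LSD1WT and 45.9 and 37.9 CPM for LSD1cKO. The ligated femur held 34.7 and 2.67 CPM for LSD1WT and 23.0 and 19.7 CPM for LSD1cKO, and the unligated femur 26.1 and 3.60 CPM for LSD1WT and 29.4 and 17.7 CPM for LSD1cKO. All 4 mandible libraries stood above all 8 femur libraries, as did 7.07% of all genes tested. Eosinophil markers were low beside it. The sum of 8 of them was 1.89 to 4.91 CPM per library, and the granule genes Epx, Ear1, Ear2, Ear6 and Prg3 did not pass the filter on low counts.

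Ccr2, the receptor for Ccl2, was lower in the mandible than in the ligated femur within each genotype. Mandible LSD1WT libraries showed 20.2 and 19.1 CPM and mandible LSD1cKO libraries 38.1 and 49.8 CPM. Ligated femur levels were 38.6 and 249 CPM for LSD1WT, and 238 and 226 CPM for LSD1cKO. Unligated femur levels were 53.9 and 90.7 CPM for LSD1WT, and 106 and 69.7 CPM for LSD1cKO. The highest level, 249 CPM, came from a library with few osteoclast markers, but the ligated femur LSD1cKO libraries, with 17749 and 20275 CPM of those markers, were nearly as high.

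Cxcr4, the Cxcl12 receptor, stood at 20.6 and 22.6 CPM for mandible LSD1WT and at 35.9 and 35.0 CPM for mandible LSD1cKO. It reached 142 and 143 CPM in the ligated femur of LSD1cKO, against 40.7 and 112 CPM for LSD1WT there. Unligated femur values were 84.0 and 26.0 CPM for LSD1WT, and 109 and 72.2 CPM for LSD1cKO. The LSD1cKO libraries were above the LSD1WT libraries of their culture in both ligated cultures and overlapped with them in the unligated femur.

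Ccrl2, the atypical chemerin receptor, was scarce, with 0.122 and 0.66 CPM for mandible LSD1WT and 0.618 and 0.804 CPM for mandible LSD1cKO. Ligated femur libraries reached 0.711 and 8.42 CPM for LSD1WT, and 4.66 and 4.21 CPM for LSD1cKO. Unligated femur libraries reached 1.18 and 3.64 CPM for LSD1WT, and 2.99 and 2.31 CPM for LSD1cKO. The mandible libraries rested on 3 to 26 counts and ligated femur LSD1WT replicate 1 on 22 counts. Small differences among these libraries were not detectable at this depth. That femur library, at 0.711 CPM, lay below mandible LSD1cKO replicate 2, at 0.804 CPM.

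Cx3cr1, the fractalkine receptor, ranged from 37.5 to 62.8 CPM over the 6 LSD1cKO libraries. Mandible libraries had 18.8 and 24.0 CPM for LSD1WT, and 51.0 and 62.8 CPM for LSD1cKO. Ligated femur libraries had 22.5 and 45.2 CPM for LSD1WT, and 49.3 and 46.4 CPM for LSD1cKO. Unligated femur libraries had 19.4 and 283 CPM for LSD1WT, and 37.5 and 48.5 CPM for LSD1cKO. The 283 CPM came from the unligated femur LSD1WT library with 238 CPM of osteoclast markers. The 4 LSD1WT libraries with full osteoclast marker sums held 18.8 to 24.0 CPM, below all 6 LSD1cKO libraries. That split sets aside the LSD1WT libraries at 45.2 and 283 CPM, and the share of all genes split in this way was not computed. With all 6 LSD1WT libraries the genotypes overlapped for Cx3cr1, and 2.78% of all genes did not overlap.

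**Figure D1:**
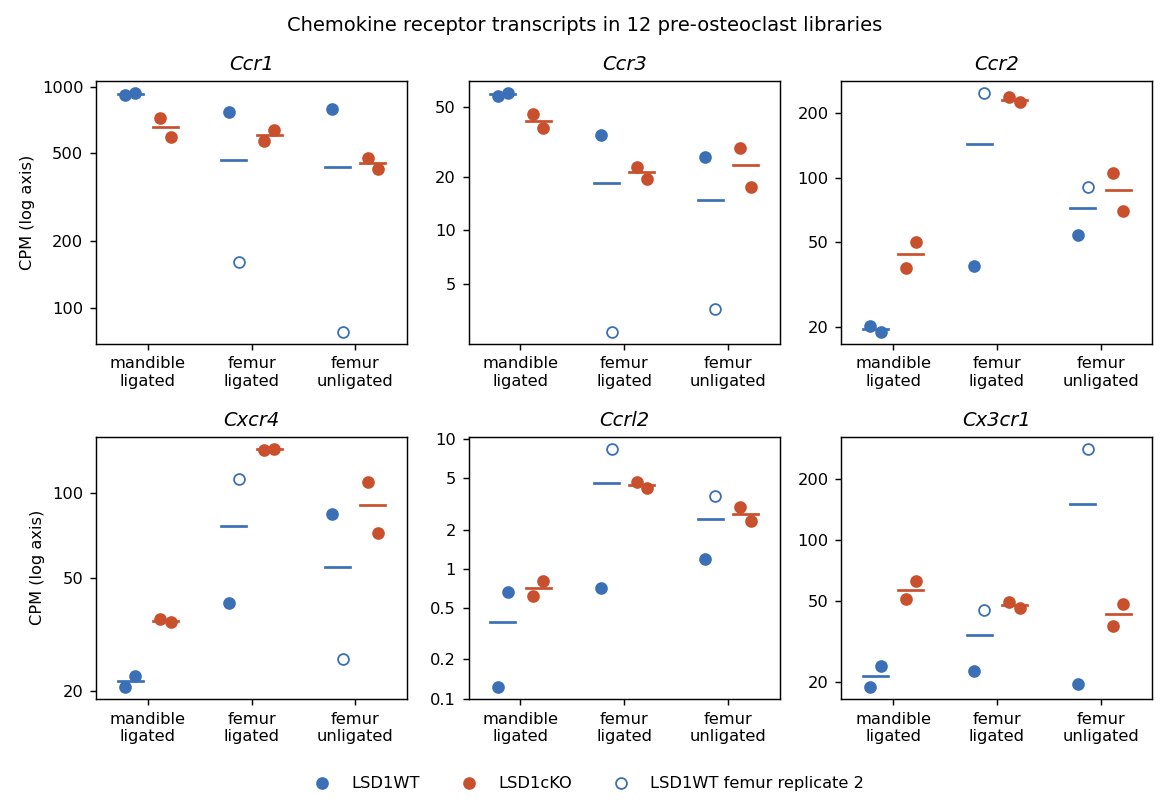
Level of each receptor (CPM, log axis) in the 12 libraries by culture and genotype, with 1 point per library and a bar at the mean of the 2 libraries. The open points, replicate 2 of both femur LSD1WT conditions, lie at 162 and 77.9 CPM for Ccr1 and at 283 CPM for Cx3cr1 in the unligated femur, while Ccr2, Cxcr4 and Ccrl2 lie lower in the mandible than in the ligated femur within each genotype.

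The first question was whether loss of LSD1 changed these receptors. With all 12 libraries, the quasi-likelihood test of edgeR (Benjamini-Hochberg adjusted p under 0.05) called 0 of the 6 over the 3 cultures, where it called 3.53% of the 15425 genes tested. One receptor, Cxcr4, had an unadjusted p under 0.05, as did 16.1% of all genes. DESeq2 and limma voom also called 0 of the 6, beside 8.09% and 2.48% of all genes. The log2 difference, LSD1cKO relative to LSD1WT, was 0.78 ± 0.30 (SE) for Cxcr4 (adjusted p = 0.216) and 0.71 ± 0.37 for Ccr2 (adjusted p = 0.398). The log2 differences of Ccr1 (-0.02 ± 0.50), Ccr3 (0.12 ± 0.57), Cx3cr1 (0.08 ± 0.68) and Ccrl2 (0.28 ± 0.56) had adjusted p from 0.871 to 0.990. Among markers of other cells, the nonclassical monocyte marker Spn was 2.46 higher in LSD1cKO (adjusted p = 3.56e-05) and the classical monocyte marker Vcan 2.80 higher (adjusted p = 0.0283), each the only member of 7 called in its list.

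Without both osteoclast-poor libraries the same test over the 3 cultures called 5 of the 6 receptors, where it called 24.2% of 16008 genes. Cx3cr1 was 1.28 ± 0.12 higher in LSD1cKO on the log2 scale (adjusted p = 6.38e-05), which is 2.44-fold. Ccrl2 was 1.52 ± 0.42 higher (adjusted p = 0.0248), Ccr2 1.41 ± 0.29 higher (adjusted p = 0.00557) and Cxcr4 0.84 ± 0.25 higher (adjusted p = 0.0325). Ccr1 fell by 0.51 on the log2 scale (SE 0.12, adjusted p = 0.0102), and Ccr3 differed by -0.42 ± 0.15 (adjusted p = 0.0653). Both libraries left out are LSD1WT and were left out for their marker levels. The direction of the osteoclast and macrophage markers in this fit follows in part from that choice and is no independent result. Which receptors were called depends on the same choice, as does the size of most receptor differences. The Cxcr4 difference moved little, from 0.78 with 12 libraries to 0.84. Over the 12 libraries r with the log2 osteoclast marker sum was 0.93 for Ccr1, 0.92 for Ccr3, -0.69 for Cx3cr1, -0.56 for Ccrl2, -0.44 for Ccr2 and -0.01 for Cxcr4. The libraries left out held the lowest Ccr1, at 162 and 77.9 CPM, and 1 of them the highest Cx3cr1, at 283 CPM. With 12 libraries 0 of 10 osteoclast markers were called (median log2 difference -0.32), and without the pair all 10 were lower in LSD1cKO (median -0.92). For the 8 macrophage markers the median went from -0.74 with 0 called to 0.77 with 3 called higher (Adgre1, Fcgr1 and C1qb). Of 7 nonclassical monocyte markers, 1 was called higher with 12 libraries and 4 without the pair (Spn, Itgal, Cd300e and Treml4). The summed nonclassical monocyte markers were 51.7 to 102 CPM in the 4 LSD1WT libraries kept and 195 to 346 CPM in LSD1cKO. In the LSD1WT libraries left out they were 188 CPM (ligated femur) and 322 CPM (unligated femur). Their part in the receptor differences was not tested. Removing only replicate 2 of the unligated femur LSD1WT left 1 receptor called, Cx3cr1, at 1.05 (adjusted p = 0.0285), beside 3.97% of all genes.

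**Figure D2:**
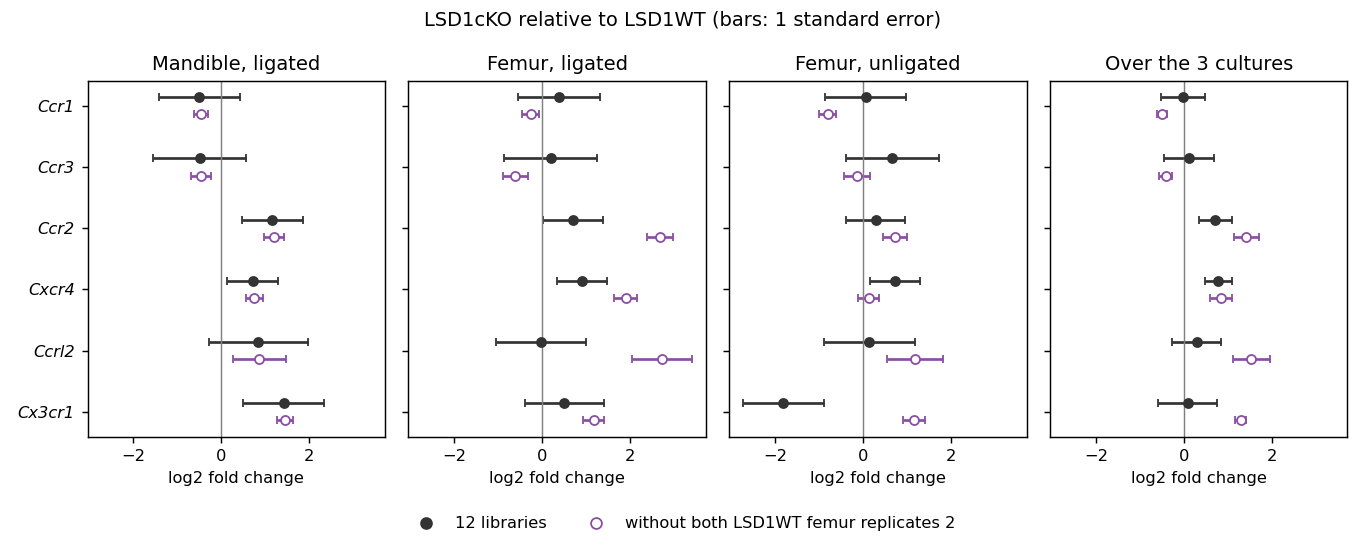
Log2 fold change of LSD1cKO relative to LSD1WT for each receptor in the 3 cultures and over all of them, with 1 standard error, from all 12 libraries (filled) and without replicate 2 of both femur LSD1WT conditions (open). Over the 3 cultures Cx3cr1 moves from 0.08 to 1.28 and Ccr1 from -0.02 to -0.51, and the errors shrink.

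Within the mandible, where no library lacked osteoclast markers, the 2 LSD1cKO libraries lay above the 2 LSD1WT libraries for Ccr2, Cx3cr1 and Cxcr4 and below them for Ccr1 and Ccr3. The groups did not overlap for 68.9% of all genes there. Log2 differences were 1.41 ± 0.91 for Cx3cr1, 1.16 ± 0.69 for Ccr2, 0.84 ± 1.12 for Ccrl2, 0.71 ± 0.57 for Cxcr4, -0.50 ± 0.93 for Ccr1 and -0.50 ± 1.05 for Ccr3. With all 12 libraries 0 of the 6 were called by edgeR or DESeq2, which called 0% and 0.947% of all genes. No unadjusted p reached 0.05, and the adjusted p was 1 for each. The outcome turned on which libraries set the spread. With the 4 mandible libraries fitted alone, 5 were called, all but Ccrl2, with adjusted p from 0.00014 for Cx3cr1 to 0.00518 for Ccr3, where 37.7% of all genes were called. Without both osteoclast-poor femur libraries, Cx3cr1 (1.45 ± 0.19, adjusted p = 0.00563) and Ccr2 (1.20 ± 0.22, adjusted p = 0.0224) were called, beside 5.85% of all genes. The mandible osteoclast marker sum was 26091 and 26214 CPM in LSD1WT and 14650 and 14779 CPM in LSD1cKO.

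In the ligated femur the LSD1cKO libraries lay above both LSD1WT libraries for Cxcr4 and Cx3cr1, as did 14.8% of all genes. The log2 difference was 0.90 ± 0.57 for Cxcr4, 0.69 ± 0.68 for Ccr2 and 0.50 ± 0.90 for Cx3cr1. None of the 6 was called with 12 libraries by edgeR (0.00648% of all genes were) or by DESeq2 (1.43% of the genes to which it gave an adjusted p). At an unadjusted p of 0.05, 0 of the 6 passed, beside 6.88% of all genes. Set against the single remaining LSD1WT library, Ccr2 was 2.67 ± 0.30 higher (adjusted p = 0.00411), Cxcr4 1.89 ± 0.26 higher (adjusted p = 0.00639) and Cx3cr1 1.17 ± 0.24 higher (adjusted p = 0.0250), beside 9.35% of all genes called.

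In the unligated femur no receptor separated the genotypes, where 18.4% of all genes did. Cx3cr1 differed by -1.81 ± 0.92 (adjusted p = 1) with 12 libraries and by 1.15 ± 0.24 (adjusted p = 0.0541) without the osteoclast-poor pair, so its direction rested on the library at 283 CPM. Of the 6 receptors 0 were called in either fit by edgeR, which called 0% and 2.47% of all genes, and with 12 libraries DESeq2 called 0 and 0 passed at an unadjusted p of 0.05.

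Interaction terms asked whether the LSD1 effect differed by site or by ligature. By edgeR, 0 of the 6 were called in either (0% of the genes tested), 0 passed at an unadjusted p of 0.05, and DESeq2 called 0. The widest was Cx3cr1 between ligated and unligated femur, at 2.32 ± 1.28 on the log2 scale. Without the doubtful pair it was 0.02 ± 0.32, and Ccr2 and Cxcr4 were then at 1.96 ± 0.38 and 1.77 ± 0.34 (adjusted p = 0.410 for both), again with 0 of the 6 called. The genotype differences are not shown to differ between cultures.

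The second question was how the site of the marrow bore on these receptors. Mandible marrow came only from ligated mice, so the site and its nearness to the ligature cannot be told apart. In both genotypes the 2 mandible libraries lay below the 2 ligated femur libraries for Ccr2, Cxcr4 and Ccrl2, as did 21.8% of all genes, and above them for Ccr3, as did 21.3%. In LSD1WT the log2 differences, mandible relative to femur, were -2.87 ± 0.73 for Ccr2, -1.82 ± 0.59 for Cxcr4 and -3.51 ± 1.17 for Ccrl2. In LSD1cKO, where the same 2 mice gave both sites, they were -2.40 ± 0.71, -2.01 ± 0.59 and -2.63 ± 1.10. Within each genotype these 3 receptors had an unadjusted p under 0.05, as did 19.8% of all genes in LSD1WT and 15.0% in LSD1cKO. In each, edgeR called 0 of the 6 (0% of all genes), with adjusted p from 0.167 to 0.311. DESeq2 called 3 in LSD1WT and 2 in LSD1cKO, beside 8.73% and 5.58% of the genes to which it gave an adjusted p.

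The mean of the site difference over both genotypes, a comparison chosen after the values had been seen, was called for Ccr2 (-2.64 ± 0.51, adjusted p = 0.0314) and Cxcr4 (-1.91 ± 0.42, adjusted p = 0.0385) and missed the threshold for Ccrl2 (-3.07 ± 0.80, adjusted p = 0.0560), beside 6.22% of all genes. Ccr1 (0.56 ± 0.66) and Ccr3 (1.31 ± 0.75) were not called, and Cx3cr1 lay at 18.8 to 62.8 CPM in the mandible and at 22.5 to 49.3 CPM in the ligated femur. With a block for the ligated LSD1cKO mice 1 and 2, the Ccr2 and Cxcr4 differences were -2.64 ± 0.54 and -1.91 ± 0.45. Their adjusted p were 0.0699 and 0.0808, so that 0 of the 6 were called, beside 0.707% of all genes. LSD1WT mouse 1, which also gave both sites, was not blocked in that fit. Leaving out any 1 of the 4 mandible libraries or either ligated femur LSD1cKO library also ended both calls. Each of these fits leaves 1 library in a condition. None of the genes tested were called in any of these fits, and the cause of the loss was not tested. Cxcr4 alone lost its call without replicate 2 of the ligated femur LSD1WT (-1.46, adjusted p = 0.0706) or without either unligated femur LSD1cKO library (adjusted p = 0.0549 and 0.0562), and without the former the Ccr2 difference was -1.69. With mandible LSD1WT replicate 3 counted as femur, the differences were -2.36 for Ccr2 and -1.74 for Cxcr4, and none of the genes tested were called.

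Without both osteoclast-poor libraries 4 receptors were called over both genotypes, beside 21.7% of all genes. Mandible relative to femur, Ccr2 differed by -1.68 ± 0.17 (adjusted p = 0.000899), Cxcr4 by -1.45 ± 0.15 (adjusted p = 0.000997) and Ccrl2 by -1.72 ± 0.44 (adjusted p = 0.0286), and Ccr3 was 0.88 ± 0.19 higher (adjusted p = 0.0169). The LSD1cKO arm alone, which contains neither of the doubtful libraries, gave -2.42 ± 0.23 for Ccr2, -2.03 ± 0.20 for Cxcr4 and -2.65 ± 0.52 for Ccrl2 in that fit, with adjusted p of 0.000736, 0.000855 and 0.0111, beside 21.7% of all genes. In the LSD1WT arm, left with 1 femur library, the differences were -0.94 ± 0.26 for Ccr2, -0.88 ± 0.23 for Cxcr4 and -0.79 ± 0.71 for Ccrl2, and none was called (adjusted p = 0.151, 0.135 and 0.652), beside 0.9% of all genes. In LSD1cKO the differences with 12 libraries were nearly the same (-2.40, -2.01 and -2.63), with wider errors, and none was called by edgeR. The smaller LSD1cKO errors without the doubtful pair come from the spread shared by all conditions and are not independent of leaving it out. Markers of other cells moved with the site as well. Of 8 macrophage markers, 5 were lower in the mandible over both genotypes with 12 libraries (Mrc1, Mertk, Fcgr1, C1qa and C1qb) and 6 without the doubtful pair, and their sum was 1588 to 2069 CPM in the mandible against 3159 to 3924 CPM in the 3 ligated femur libraries with osteoclast markers. In the other direction, without the doubtful pair 4 of 6 stem and progenitor markers (Mpo, Gata2, Cd34 and Prtn3) and 3 of 5 stromal markers (Col1a1, Col3a1 and Col1a2) were higher in the mandible, and with 12 libraries none of either list was called (medians 1.18 and 0.58). Their part in the receptor differences was not tested.

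**Figure D3:**
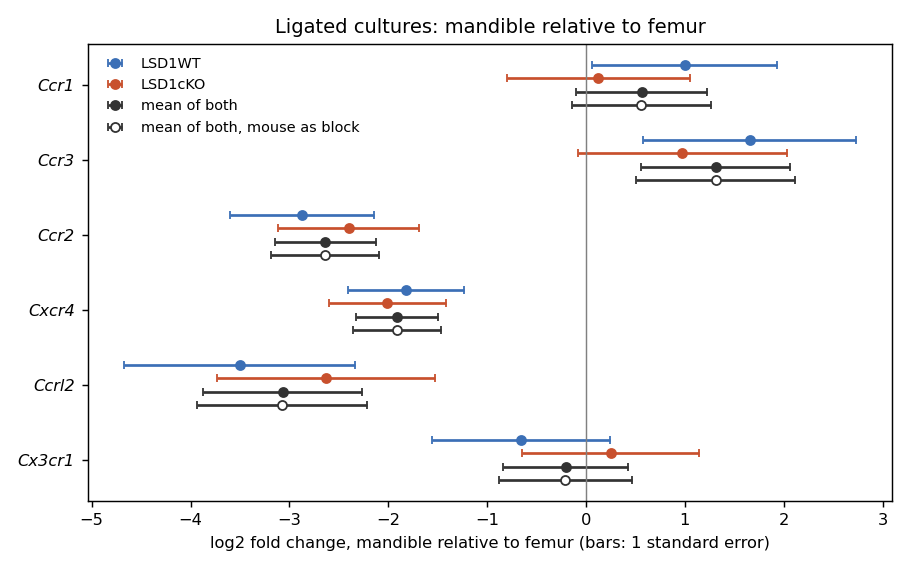
Log2 fold change of mandible relative to ligated femur for each receptor, with 1 standard error, in LSD1WT, in LSD1cKO and as the mean of both. The open points give that mean with a block for LSD1cKO mice 1 and 2 only (mouse as block). Ccr2, Cxcr4 and Ccrl2 lie between -1.82 and -3.51 in every fit shown. The points of Ccr3 lie above 0, but in LSD1cKO its bar crosses 0, as does that of Ccr1. The bars of Cx3cr1 cross 0.

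The third question was the effect of the ligature on femur marrow. In LSD1cKO the ligated femur libraries lay above the unligated ones for Ccr1, Ccr2, Cxcr4 and Ccrl2, as did 14% of all genes, with Ccr2 at 238 and 226 CPM against 106 and 69.7 CPM. In LSD1WT the groups overlapped for all 6, where 9.18% of all genes did not overlap. Of the 6 receptors 0 were called in LSD1WT, in LSD1cKO or over both (0% of all genes in each), and DESeq2 called 0. Cx3cr1 in LSD1WT and Ccr2 over both genotypes had an unadjusted p under 0.05, as did 0.765% and 2.94% of all genes. Without the doubtful pair 0 of the 6 were called again (0% of all genes), and in LSD1cKO Ccr2 then differed by 1.43 ± 0.22 (adjusted p = 0.180) and Cxcr4 by 0.68 ± 0.19 (adjusted p = 0.333).

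Over the 10 libraries with osteoclast markers, log2 CPM of Ccr2, Cxcr4 and Ccrl2 rose and fell together, with Pearson r of 0.95 for Ccr2 and Cxcr4, 0.92 for Ccr2 and Ccrl2, and 0.93 for Cxcr4 and Ccrl2 (Spearman 0.93, 0.96 and 0.92). Ccr3 ran against them, with r of -0.83 to -0.88, and with Ccr1 at 0.75. Cx3cr1 had r of 0.38 to 0.56 with Ccr2, Cxcr4 and Ccrl2 and -0.71 with Ccr1. Against the log2 sum of osteoclast markers over the same 10 libraries, r was -0.83 for Cx3cr1, 0.52 for Ccr1, 0.26 for Ccr3, and between -0.24 and -0.07 for Ccr2, Cxcr4 and Ccrl2. The libraries share sites, genotypes and mice, and these values are descriptions only.

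**Figure D4:**
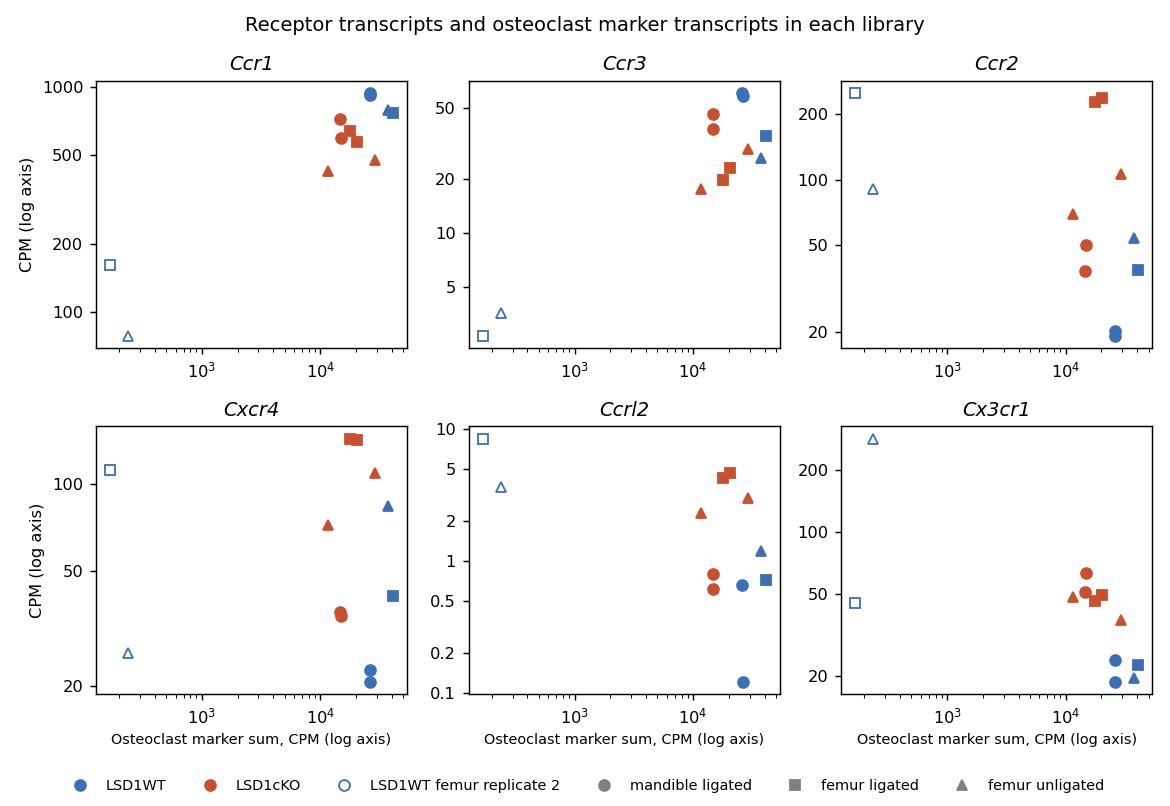
Level of each receptor (CPM, log axis) against the sum of 10 osteoclast markers in the same library (CPM, log axis), with genotype by colour and culture by shape. The 2 open points at 168 and 238 CPM of markers are lowest for Ccr1 and Ccr3, while Cxcr4 and Ccr2 spread widely among the libraries above 11544 CPM.

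By log2 CPM over all 12 libraries, the genes most like Ccr1 were Mterf2, C9orf72 and Gstp1 (r 0.98 to 0.99, and 0.94, 0.97 and 0.85 over the 10 libraries with osteoclast markers). Those most like Ccr3 were Rhof, Prss46 and Oaf (r 0.99 to 1.00, and 0.95 to 0.97 over the 10). Those most like Ccr2 were Tifab, Sp140 and Msrb1 (r 0.98, and 0.97 to 0.98 over the 10), those most like Cxcr4 were Adgre4, Pltp and Tmem176a (r 0.96 to 0.97, and the same range over the 10), and those most like Ccrl2 were ENSMUSG00000121091, Krt80 and Plxna4os1 (r 0.97 to 0.98, and the same range over the 10). The closest to Cx3cr1 were St3gal5, Chst3 and Cdk14 (r 0.94 to 0.95), whose r over the 10 libraries was 0.85 to 0.89.

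Of 14 ligands of these receptors, 10 were tested. Ccl9, a Ccr1 ligand, was the most abundant at a mean of 2323 CPM, with 923 and 632 CPM in the osteoclast-poor libraries against 1855 to 3088 CPM in the others. Ccl5, which binds Ccr1 and Ccr3, was the only ligand called over the 3 cultures, 2.37 ± 0.44 higher in LSD1cKO (adjusted p = 0.0169), beside 3.53% of all genes. It was at 0.49 and 0.807 CPM in mandible LSD1WT against 1.96 and 2.94 CPM in mandible LSD1cKO. Ccl6 averaged 59.9 CPM and the Ccr2 ligand Ccl2 27.8 CPM, with log2 differences of -0.14 ± 0.51 and -0.13 ± 0.70. Without the doubtful pair 4 ligands were called higher (Ccl3, Ccl4, Ccl5 and Ccl6, the last at 1.05 ± 0.28) and none lower, where 14.4% of all genes were called higher. Between sites, Ccl6 was lower in the mandible, at -3.53 ± 0.71 (adjusted p = 0.0327), and at -2.28 ± 0.22 (adjusted p = 0.000753) without the doubtful pair. The Ccr2 ligand Ccl12 was lower as well (adjusted p = 0.0485, and 0.0712 without the pair), with 0 to 3 counts per mandible library against 7 to 48 per ligated femur library. With 12 libraries these 2 were the only ligands called between sites, beside 6.22% of all genes. Ccl24 (mean 1.21 CPM) and Ccl5 also lay lower in the mandible, at -5.44 ± 1.36 and -1.58 ± 0.56, and at -2.93 and -1.29 without the pair. Ccl9 (0.48 ± 0.44) and Cx3cl1 (0.23 ± 0.51) went the other way with 12 libraries. The eotaxin Ccl11 and the chemerin gene Rarres2 had 0 counts in every library, and Cxcl12 did not pass the filter on low counts.

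Of 19 other chemokine receptors, 10 were tested and 0 were called over the 3 cultures, beside 3.53% of all genes. Cxcr3, a receptor known from T cells, had a log2 difference of 1.89 ± 0.57 (adjusted p = 0.118), and without the doubtful pair it was 3.26 ± 0.22 higher in LSD1cKO (adjusted p = 1.02e-05). In that fit 4 of 9 tested were called higher, Cxcr3, Cxcr2 and Cmklr1 among them, and none lower, beside 14.4% of all genes called higher. Cmklr1, the signalling chemerin receptor, was lower in the mandible than in the femur over both genotypes (-4.99 ± 0.91, adjusted p = 0.0289, and -3.28 ± 0.27, adjusted p = 0.000553, without the doubtful pair). How reads shared between receptors of similar coding sequence were counted is not given in the sources used here. Ccr1l1, the paralog beside Ccr1, held 0 to 16 counts per library. Of 28 genes of receptor signalling and desensitization, all tested, 0 were called over the 3 cultures with 12 libraries. The most abundant were the GTPases Rap1b (917 CPM) and Cdc42 (860 CPM) and the inhibitory G protein subunit Gnai2 (819 CPM), whose log2 differences ran from -0.08 to 0.30. Of the 28, 9 were higher and none lower without the doubtful pair, Pik3r5, a regulatory subunit of phosphoinositide 3-kinase gamma, among them at 0.54 ± 0.12 (adjusted p = 0.00910), with the same 14.4% of all genes called higher.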

How the data were processed

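Counts of polyA RNA reads per Ensembl gene were deposited by the authors in 1 table without normalization. The submitters' processing notes name HISAT2 2.1.0, featureCounts, FastQC, edgeR and GRCm39. Mice were 2 months old by the labels and 3 months by the study's methods. TMM scaling and filterByExpr in edgeR 4.0.16 left 15425 genes. A quasi-likelihood model with 1 coefficient per condition over 12 libraries gave the contrasts, and a model of culture and genotype gave the LSD1cKO effect over the 3 cultures. Adjustment was by Benjamini-Hochberg over all genes tested, with a threshold of 0.05. Log2 CPM used a prior count of 2, and intervals of counting cover counting error only. Alternatives were DESeq2 1.42.0, limma 3.58.1 voom, other scalings and filters, the compared conditions alone, left-out libraries, and a block for replicate number. A replicate block by mouse set ligated LSD1cKO mouse 2 apart from ligated LSD1cKO mouse 1 and did not block LSD1WT mouse 1. In voom all mice were a random block. The mean of the site or ligature difference over genotypes was added after seeing the data. The 2 sites of the same LSD1cKO mice had replicate differences correlated at 0.026 over genes, and their pairing comes from the mouse labels. Between other conditions the correlation was 0.78 for the ligated and unligated femur of LSD1WT, 0.22 for the genotypes in the unligated femur, and -0.023 to 0.030 in the 3 other pairs. The fits were run on simulated counts, drawn independently around a mean per gene with known changes added. The simulation held no osteoclast-poor libraries and no shared mice, so it does not test how the fits deal with those. Members and gene lists were chosen with earlier results of these data known. Named were the receptors in every library, the 3 genes most like each by Pearson r, and from each pathway list up to 4 genes past the threshold over the 3 cultures, or else the 3 most abundant; other genes were named after their values were seen, and 1 gene of a list is not reported here. Gene lengths came from GENCODE vM21 by Ensembl identifier, and 6 of 6 receptors matched the RefSeq promoter table of GRCm38.p6.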

Additional observations from a re-analysis of the deposited data

Results flagged for a closer look

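Cx3cr1 in replicate 2 of the unligated femur LSD1WT stood apart from the other 5 LSD1WT libraries, at 283 CPM (282.84). Its gap to the next library, 0.677 of the range of log2 CPM, was above the critical value of 0.625 for 6 samples. The same check over the 6 libraries of each genotype was made for 12 sets of values, and chance marks about 1 in 20. The library is one of the 2 with few osteoclast markers, at 238 CPM.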

How the results depend on the processing

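Of 615 log2 fold changes recomputed for 27 reported ones, 589 kept their direction, and 20 of the 27 kept it throughout. Over the 3 cultures, genotype calls among the 6 receptors numbered 0 to 1 with single libraries left out and 5 without both femur LSD1WT libraries numbered 2. The Ccr1 difference turned to 0.031 with no filter, 0.018 at a mean of 10 counts, 0.55 with a replicate block and 0.55 with voom (mouse as a random block), and ranged from -0.25 to 0.51 with libraries left out. Cx3cr1 was -0.16 with a replicate block by mouse and ranged from -0.14 to 1.05, and Ccr3 was -0.10 with mandible LSD1WT replicate 3 as femur, -0.42 without the pair, and ranged from -0.13 to 0.65.

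In the mandible, 5 receptors were called in 4 libraries alone and 2 without the pair, and Ccr1 and Ccr3 were 0.13 and 0.39 with a replicate block. In the ligated femur 3 were called without the pair, and Ccr2 ranged from -0.016 to 2.58. In the unligated femur Cx3cr1 was 1.15 without the pair and ranged from -2.65 to 1.15. For the site in LSD1WT, 3 were called by DESeq2 (8.73% of all genes), 3 with no filter (3.02%) and 0 to 4 with libraries left out, the 4 without ligated femur LSD1WT replicate 1 (23.2%). In LSD1cKO the numbers were 2 by DESeq2 (5.58%), 2 with no filter (1.21%), 4 in the compared conditions alone (42.1%), 4 without the pair (21.7%) and 0 to 1 with libraries left out (at most 4.25%). Over both genotypes they were 0 with a replicate block, a replicate block by mouse, voom or replicate 3 as femur, 4 without the pair (21.7%), and 0 to 4 with libraries left out, the 4 without ligated femur LSD1WT replicate 1 (30.2%). The ligature over both genotypes gave 0 to 1, the 1 without ligated femur LSD1WT replicate 1 (0.26%). For the site over both genotypes the replicate block by mouse called 0.707% of all genes, voom 0.0389% and the replicate block 0%. The replicate block by mouse changed no other call. The cause was not tested. Levels per length kept their place with the longest transcript, except that Ccr2 (10.8) passed Cx3cr1 (10.2 CPM per kb). With 2 libraries per condition, single receptors at low counts, Ccrl2 above all, are imprecise.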
